A study of Homo sapiens with 28 samples.

Results

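The HOX cluster genes were followed in peak lists of N6-methyladenosine (m6A) on caRNA, the nuclear RNA recovered with the chromatin pellet. The members were the 39 coding genes named HOXA, HOXB, HOXC or HOXD plus a number, out of 20033 coding genes in GENCODE release 44 (hg38). The HOXA cluster on chromosome 7 held 11 of them, the HOXB cluster 10 (chr17:48528526-48728750), and the HOXC (chr12:53938831-54056030) and HOXD (chr2:176092721-176190907) clusters 9 each. A gene was listed in a library when the summit of a peak lay on its strand between 1000 bases upstream of its start and its end. Summits on the other strand of the same window were counted apart as antisense. A listed gene says that m6A antibody pulldown was enriched there. An unlisted gene may lack the RNA, lack m6A on it, or hold too little of either to be called, and these cannot be told apart here.

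HOX genes encode homeodomain transcription factors that give cells their position along the body axis. They sit in clusters, and their order on the chromosome follows the order in which they are used from head to tail. In blood, HOX genes of the A and B clusters are active in stem and progenitor cells and are shut off as cells mature, and HOXA9 with its partner MEIS1 is a known driver of acute myeloid leukaemia. The clusters also make antisense and intergenic RNAs, such as HOTTIP and HOXA11-AS, which stay largely in the nucleus.

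The series held 14 immunoprecipitated (IP) libraries in 6 groups and 14 input libraries, which are not analysed here. HepG2, a hepatoma line, was unmodified (HepG2 WT, n = 2). K562, a chronic myelogenous leukaemia line, was unmodified (K562 WT, n = 2), or carried a control hairpin (K562 Control, n = 2) or a hairpin against the RNA-binding protein RBFOX2 (K562 RBFOX2 KD, n = 2). NB4, an acute promyelocytic leukaemia line, carried the control hairpin (NB4 Control, n = 3) or the hairpin against RBFOX2 (NB4 RBFOX2 KD, n = 3). Per the study's methods, hairpins were delivered by lentivirus and cells were kept under puromycin, so Control and KD cells share virus and selection and WT cells have neither. Which hairpin was used in each KD library was not stated. The study's methods speak of biological replicates, and neither they nor the labels say whether these libraries came from separate cultures, so p-values measure the spread between these libraries, which may be technical.

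The lists held 22700 to 44088 peaks. Depth, recovered from the lists in mega-reads (M), was 10.8 to 15.6 M in NB4 Control and 16.8 to 21.9 M in NB4 RBFOX2 KD, and 12.6 to 19.5 M in the 4 K562 hairpin libraries. It was 24.9 to 30.0 M in the K562 WT and HepG2 WT libraries. Of summits in coding sequence of 1 strand, 89.8% to 93.7% lay on that strand. Peak lists do not measure RNA, so the knockdown itself could not be checked. RBFOX2 was listed in all 12 K562 and NB4 libraries, KD included, and in no HepG2 library. Of 8 markers for each line, at least 1 library of the line listed 6 in HepG2 (ALB and AFP in neither library), 8 in K562 and 7 in NB4 (ELANE in none). The NB4 markers SPI1 and CD33 were also listed in all 6 K562 libraries, CSF3R in both K562 WT and both HepG2 libraries, and AZU1 in both K562 WT libraries. The HepG2 marker HNF4A was also listed in both K562 WT libraries. The K562 marker GATA1 was also listed in all 3 NB4 RBFOX2 KD libraries and in no NB4 Control library. Its part in the results below was not tested.

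The sequences at the summits are shown first, to let the HOX sites be read. They were drawn from the sense and antisense regions of each cluster that were listed in most libraries. A region is the stretch covered by overlapping peaks of 1 strand. Sequences are hg38, 5′ to 3′ on the strand of the peak, around the median summit. The feature named for a stretch is that at its median summit, and a stretch can run past the edge of the exon. Where an annotated UTR overlaps, only a short stretch around the nearest motif is given. Capitals mark the usual m6A context DRACH, which is any base but C, then A or G, then AC, then any base but G.
HOXA13 exon 2, coding, chr7:27198296-27198396, minus strand: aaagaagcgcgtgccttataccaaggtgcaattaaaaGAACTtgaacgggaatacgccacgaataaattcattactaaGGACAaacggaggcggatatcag
HOXA10 exon 2, coding, chr7:27172033-27172133, minus strand: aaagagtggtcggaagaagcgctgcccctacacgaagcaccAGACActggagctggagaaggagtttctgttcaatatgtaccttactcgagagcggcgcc
HOXA11-AS intron 2, upstream of the HOXA11 start, chr7:27186584-27186684, plus strand: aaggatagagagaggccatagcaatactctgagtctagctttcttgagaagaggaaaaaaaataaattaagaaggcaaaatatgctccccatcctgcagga
HOXB9 exon 1, coding, chr17:48625747-48625847, minus strand: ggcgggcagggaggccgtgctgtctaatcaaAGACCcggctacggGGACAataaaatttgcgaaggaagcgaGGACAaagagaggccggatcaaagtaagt
HOXB-AS1 exon 2, antisense to HOXB2, chr17:48545110-48545134, plus strand: attAAACCcaGGACTccagcgaaat
HOXC9 exon 2, 3′ UTR, chr12:54002703-54002727, plus strand: gccaagggaaAAACAaAAACCccac
HOXD13 exon 2, coding, chr2:176094466-176094566, plus strand: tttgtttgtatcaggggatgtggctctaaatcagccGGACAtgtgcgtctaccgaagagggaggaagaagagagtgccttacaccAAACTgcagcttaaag
HOXD13 exon 1, coding, chr2:176093619-176093719, plus strand: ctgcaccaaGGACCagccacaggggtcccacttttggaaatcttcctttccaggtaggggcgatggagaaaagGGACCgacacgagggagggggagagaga
HAGLR intron 1, antisense to HOXD1, chr2:176188355-176188455, minus strand: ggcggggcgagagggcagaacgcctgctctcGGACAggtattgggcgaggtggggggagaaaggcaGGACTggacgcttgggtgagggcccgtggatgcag

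Part of the homeodomain is encoded in the HOXA13 and HOXA10 stretches and in the end of the HOXD13 exon 2 stretch. Both HOXD13 stretches also hold intron bases beside the coding bases, and the later GGACC lies among those intron bases. The HOXA11-AS intron stretch held no DRACH. It lies past the upstream edge of the HOXA11 window, and its region, which reaches into that window, is shown for its strength. The HOXB-AS1 and HAGLR stretches lie upstream of the HOXB2 and HOXD1 starts, on the other strand of the windows of those genes.

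DRACH lay within 75 bases of the median summit in 53 of 54 sense regions and in 9 of 11 antisense regions. Such a window of 151 bases held DRACH at 94.6% to 98.4% of all summits in a list, so most summits of any kind held it. GGACT, searched on the strand of the peak, lay in 17 of 54 sense regions. By library it lay at 33.3% to 40.0% of HOX sense summits in K562, against 24.8% to 29.1% of all summits of those lists. In NB4 the HOX share was 16.7% to 40.0%, over 10 to 13 summits, against 22.5% to 25.1%. In HepG2 1 of 5 HOX sense summits held it in each library (20.0%), against 23.4% and 22.04% of all summits. These are descriptions, and GGACT summits are included in the DRACH counts.

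Across the libraries 21 of the 39 genes were listed on their own strand, each in at least 2 libraries. The other 18 were listed on neither strand in any library. Among these were HOXA4, HOXA5, HOXA6, HOXA7, HOXB1, HOXB13, HOXC5, HOXC11, HOXC12, HOXC13, HOXD3, HOXD4, HOXD8, HOXD9, HOXD10, HOXD11 and HOXD12. Each K562 library listed 12 HOX genes. NB4 Control libraries listed 10, 9 and 9, NB4 RBFOX2 KD libraries 10, 9 and 10, and each HepG2 library 3. As a share of the family this was 30.8% in K562, 23.1% to 25.6% in NB4 and 7.69% in HepG2, while 37.1% to 48.9% of all coding genes were listed. The HOX share was thus lower than the share of all coding genes in every library.

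**Figure D1:**
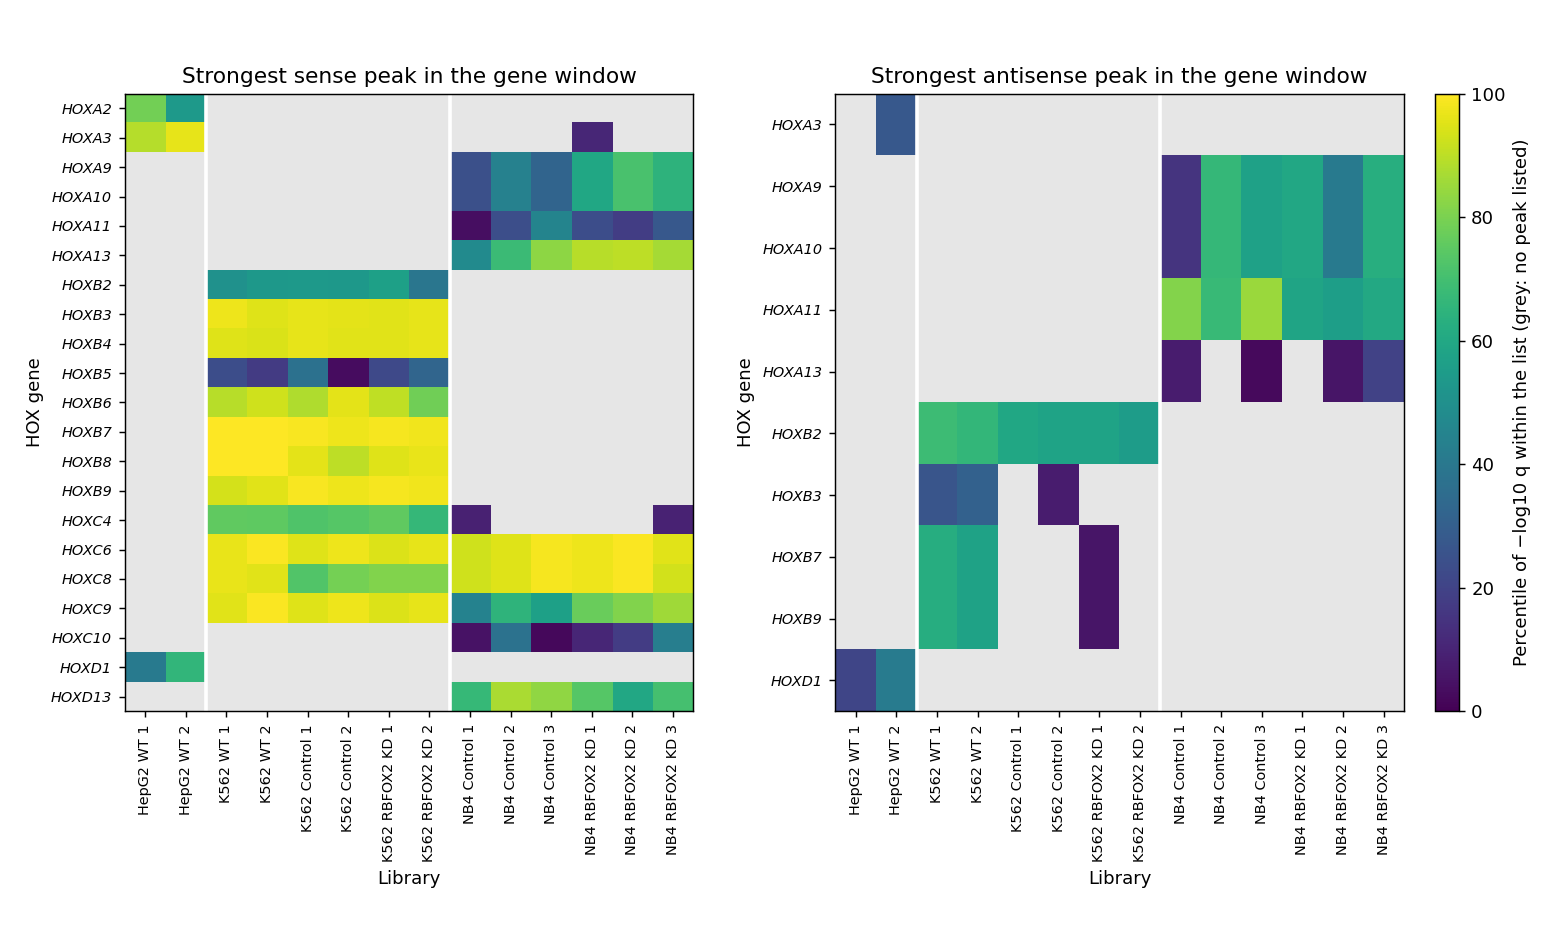
Strength of the strongest sense (left) and antisense (right) peak in the window of each listed HOX gene (rows) in each library (columns), as the percentile of −log10 q within the library's own list, with grey where no peak was listed. The K562 libraries fill HOXB2 to HOXB9 and part of HOXC, the NB4 libraries the 5′ HOXA genes, part of HOXC and HOXD13, and the HepG2 libraries HOXA2, HOXA3 and HOXD1.

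The clusters divided the lines. K562 listed 8 HOXB genes (HOXB2 to HOXB9) and 4 HOXC genes (HOXC4, HOXC6, HOXC8 and HOXC9) in all 6 libraries and no HOXA or HOXD gene in any. NB4 listed HOXA9, HOXA10, HOXA11, HOXA13, HOXC6, HOXC8, HOXC9, HOXC10 and HOXD13 in all 6 libraries and no HOXB gene in any. HepG2 listed HOXA2, HOXA3 and HOXD1 in both libraries. Only HOXC6, HOXC8 and HOXC9 were listed in all 12 leukaemia libraries, and no HOX gene was listed in all 3 lines.

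The number of listed genes was 12 ± 0 in K562 and 9.50 ± 0.548 in NB4 (SD, n = 6 libraries each). The difference of 2.50 genes was larger than the spread between libraries (exact permutation test over libraries, two-sided, p = 0.00216, Benjamini-Hochberg adjusted p = 0.00541 over 10 tests between lines). NB4 had 4.17 more HOXA genes and 1 more HOXD gene, and K562 had 8 more HOXB genes, each with p = 0.00216 (exact, adjusted p = 0.00541), the smallest that 6 against 6 can give. For HOXC the means were 4 and 4.33, and the difference fell within the spread (exact p = 0.455, adjusted p = 0.505). Against HepG2, K562 listed 9 and NB4 6.50 more genes, with no overlap of libraries. With 2 HepG2 libraries the exact p was 0.0357 for each, the smallest possible, and the adjusted p of 0.0510 did not pass 0.05. Libraries of a line were pooled over WT, Control and KD. The labels name no batch, and line and any batch that goes with it cannot be told apart.

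Over all coding genes, 4.14% were listed in every K562 and in no NB4 library, and 8 of 39 HOX genes were, all in HOXB. In the other direction the share was 2.82%, and 6 of 39 HOX genes met it, namely HOXA9, HOXA10, HOXA11, HOXA13, HOXC10 and HOXD13. Of all coding genes 7.69% were listed in every K562 and no HepG2 library, against 12 of 39 HOX genes, and 4.02% the reverse, against 3 of 39. For NB4 and HepG2 the shares were 6.7% (9 of 39 HOX genes) and 5.15% (2 of 39, HOXA2 and HOXD1).

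**Figure D2:**
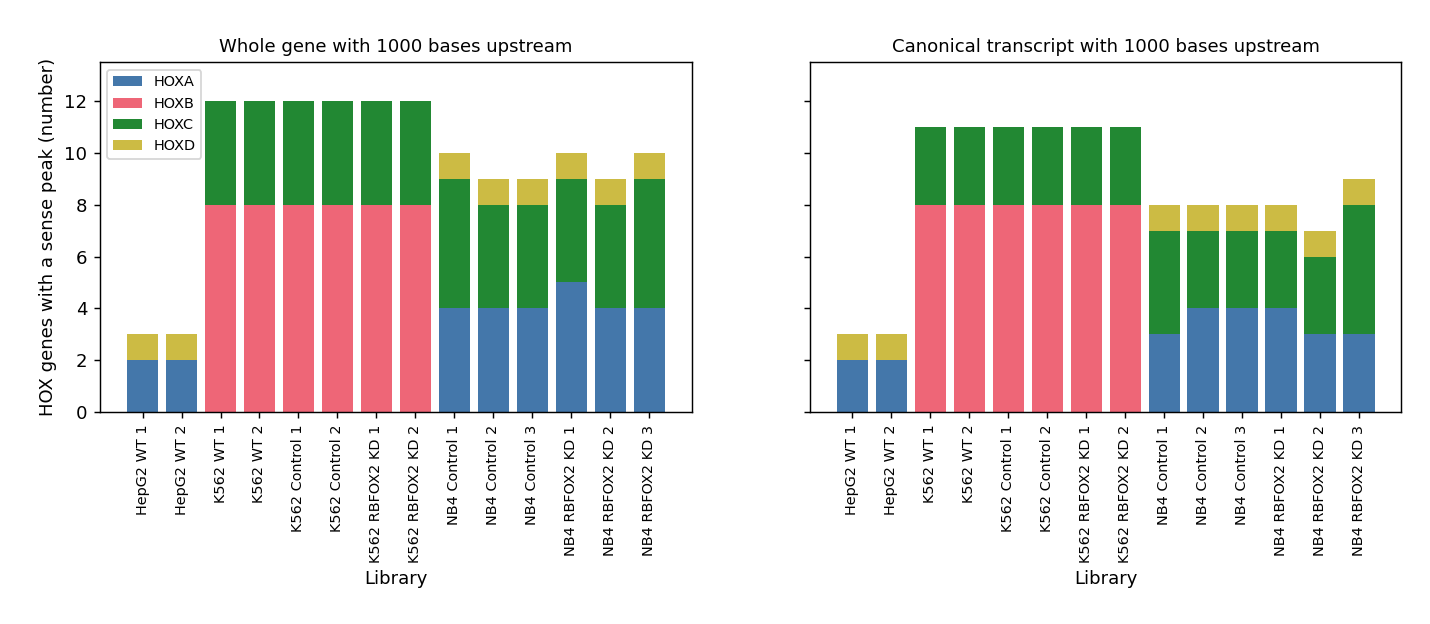
Number of HOX genes with a sense peak in each library (bars, stacked by cluster), with the window over the whole gene (left) or over the canonical transcript (right), both with 1000 bases upstream. K562 bars hold HOXB and HOXC only (12 genes left, 11 right), NB4 bars hold HOXA, HOXC and HOXD (9 to 10 left, 7 to 9 right), and HepG2 bars hold 3 genes in both.

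Windows of neighbouring HOX genes overlap, and 1 peak can list several genes. HOXB3 spans HOXB4, HOXB5 and most of HOXB6, HOXB7 spans HOXB8 and HOXB9, HOXC6 spans HOXC8 and HOXC9, and HOXA9 reaches into HOXA10. With the canonical transcript in place of the gene, every K562 library listed 11 genes, since HOXC4 dropped out. In every K562 library the strongest peak in the HOXC4 window lay in coding exon 1 of HOXC6. In NB4 7 to 9 genes were listed this way. HOXC6 kept a canonical peak in all 6 K562 libraries but in 1 of 6 NB4 libraries, so its NB4 listing rested mainly on the peaks of HOXC8 and HOXC9 and on a region between them in an intron of a gene tagged as readthrough in the annotation. HOXA9 kept one in 2 of 6 NB4 libraries, both Control.

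Counts by paralogue number also differed between the lines. These counts pool clusters that do not hold the same numbers, and K562 listed HOXB2 to HOXB9 as 1 block. Cluster and position in the cluster are thus mixed in them. Of 8 genes numbered 1 to 3, every HepG2 library listed 3, every K562 library 2 and none was listed in every NB4 library. Of 15 genes numbered 4 to 8, every K562 library listed 8 and every NB4 library 2, and HepG2 none. Of 16 genes numbered 9 to 13, every NB4 library listed 7, every K562 library 2, and HepG2 none. With canonical transcripts the counts for 4 to 8 became 7 and 1, and those for 9 to 13 became 2 and 6. Neighbours share peaks as described above, and no test was made.

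In HOXB the strongest K562 peaks were among the strongest of their lists. Strength is given as the percentile of −log10 q, the percent of peaks of the same list that are no stronger. HOXB8, a paralogue of HOXC8, stood at 99.9 and 99.6 in K562 WT, 96.1 and 89.9 in Control, and 95.2 and 96.5 in KD. HOXB9 stood at 93.4 and 95.4 in WT, 98.9 and 97.4 in Control, and 98.6 and 98.0 in KD. WT libraries were the low ones at HOXB9 and the high ones at HOXB8. HOXB4, a regulator of blood stem cell expansion, stood at 95.1 and 94.2 in WT, 96.1 and 95.7 in Control, and 95.4 and 96.2 in KD. HOXB3 ranged from 95.0 to 97.4 and HOXB7 from 97.4 to 99.9, though in the hairpin libraries the HOXB3 value was that of a HOXB4 or HOXB6 peak, and HOXB7 takes in the peaks of HOXB8 and HOXB9. HOXB7's own exon 2 region stood at 89.1 and 89.1 in WT, and at 49.2, 70.3, 59.9 and 59.8 in the 4 hairpin libraries.

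Other HOXB genes were weaker or more variable. HOXB6 stood at 89.3 and 92.6 in WT, 88.1 and 96.0 in Control, and 90.6 and 78.5 in KD. HOXB2 stood at 50.6 and 53.2 in WT, 53.6 and 53.4 in Control, and 56.8 and 39.1 in KD, close to the middle of each list. HOXB5 was the weakest, at 23.5 and 17.3 in WT, 37.3 and 3.33 in Control, and 22.1 and 32.7 in KD. Control and KD libraries overlapped for each of these 3 genes. Fold over local background at the HOXB4 peak was 13.7 and 12.6 in WT against 28.2 to 35.9 in the hairpin libraries. The median fold of all peaks was also lower in K562 WT, at 5.68 and 5.70, than in the hairpin libraries, at 6.57 to 8.01.

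In HOXC, the HOXC8 exon 2 peak was listed in all 12 leukaemia libraries and no HepG2 library. Its percentile was 96.8 and 95.7 in K562 WT, 72.9 and 79.0 in K562 Control, and 81.0 and 81.2 in K562 KD. In NB4 it was 92.9, 95.0 and 98.6 in Control, and 97.4, 99.4 and 93.0 in KD. The K562 hairpin libraries were the low ones, and NB4 groups overlapped. The HOXC9 peak, 30 bases past the stop codon at its median summit, stood at 94.9 to 99.3 over K562 libraries. In NB4 it stood at 44.3, 65.1 and 57.0 in Control, and 77.1, 81.0 and 85.6 in KD. All NB4 values were below all K562 values.

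HOXC6 was listed through its own coding exon 1 in K562, at 75.6 and 75.1 in WT, 72.6 and 73.7 in Control, and 75.7 and 66.7 in KD. These are also the HOXC4 values, since its window holds that exon. In NB4 HOXC4 was listed in Control 1 at 9.27 and in KD 3 at 9.73, the latter again through that exon. Its own 5′ UTR also held a weaker peak in KD 3, at 8.49. HOXC10, next to HOXC9 on the 5′ side of the cluster, was listed in NB4 alone, at 4.97, 37.5 and 2.26 in Control, and 10.8, 18.0 and 42.8 in KD. It was among the weak peaks of those lists.

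In HOXA, NB4 listed the 4 genes at the 5′ end of the cluster. HOXA13 stood at 47.9, 68.1 and 83.1 in Control, and at 89.2, 89.97 and 86.6 in KD. The HOXA10 exon 2 peak, which also lists HOXA9, stood at 24.4, 43.8 and 32.3 in Control, and at 59.6, 71.5 and 64.5 in KD. KD libraries were above Control libraries at both. HOXA11 stood at 3.61, 24.2 and 45.1 in Control, and at 23.8, 18.1 and 27.7 in KD, with overlap.

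HepG2 listed the other end of HOXA. HOXA3 had 3 sense peaks in each HepG2 library, the strongest at 88.8 and 96.3 in its last coding exon. That exon was also listed in NB4 RBFOX2 KD 1, at 10.7. HOXA2 was listed through 1 region that lies upstream of the gene and outside canonical transcripts, at 78.6 and 53.7. HOXD1, the 3′-most HOXD gene, stood at 41.3 and 66.0 in HepG2. HOXD13, at the opposite end of the same cluster, was listed in NB4 alone, at 67.0, 87.2 and 83.6 in Control, and 73.7, 59.9 and 70.7 in KD.

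The 54 sense regions lay mostly in exons. At their median summits 25 were in coding sequence of a canonical transcript, 12 in introns, 4 in 3′ UTRs, 2 in 5′ UTRs, 3 in noncoding exons and 8 outside canonical transcripts. By line, 31 were found in K562 alone, 14 in NB4 alone and 4 in HepG2 alone. The 4 regions shared by K562 and NB4 were all in HOXC, and the 1 region shared by NB4 and HepG2 was in HOXA3.

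Most listed HOX genes had a peak near the stop codon, in the last exon, which in HOX genes holds the homeobox. The median summit lay before the stop codon in HOXA3 (−98 bases), HOXA10 (−181), HOXA11 (−79), HOXA13 (−145), HOXB2 (−244), HOXB3 (−103), HOXB7 (−39), HOXB8 (−160), HOXB9 (−153), HOXC6 (−53), HOXC8 (−126), HOXC10 (−243), HOXD1 (−214) and HOXD13 (−211). It lay after it in HOXB4 (198), HOXB6 (357) and HOXC9 (30). Peaks around stop codons are a known feature of m6A. Within 400 bases of the stop codon, 81.8% to 90.9% of the HOX genes listed in a K562 library and 77.8% to 100% of those in an NB4 library had a summit. In HepG2 2 of 3 did. For all coding genes listed by canonical transcript the share was 45.3% to 48.0%. HOX genes were above that share in all 14 libraries, which share cell lines and genes, and no test was made.

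**Figure D3:**
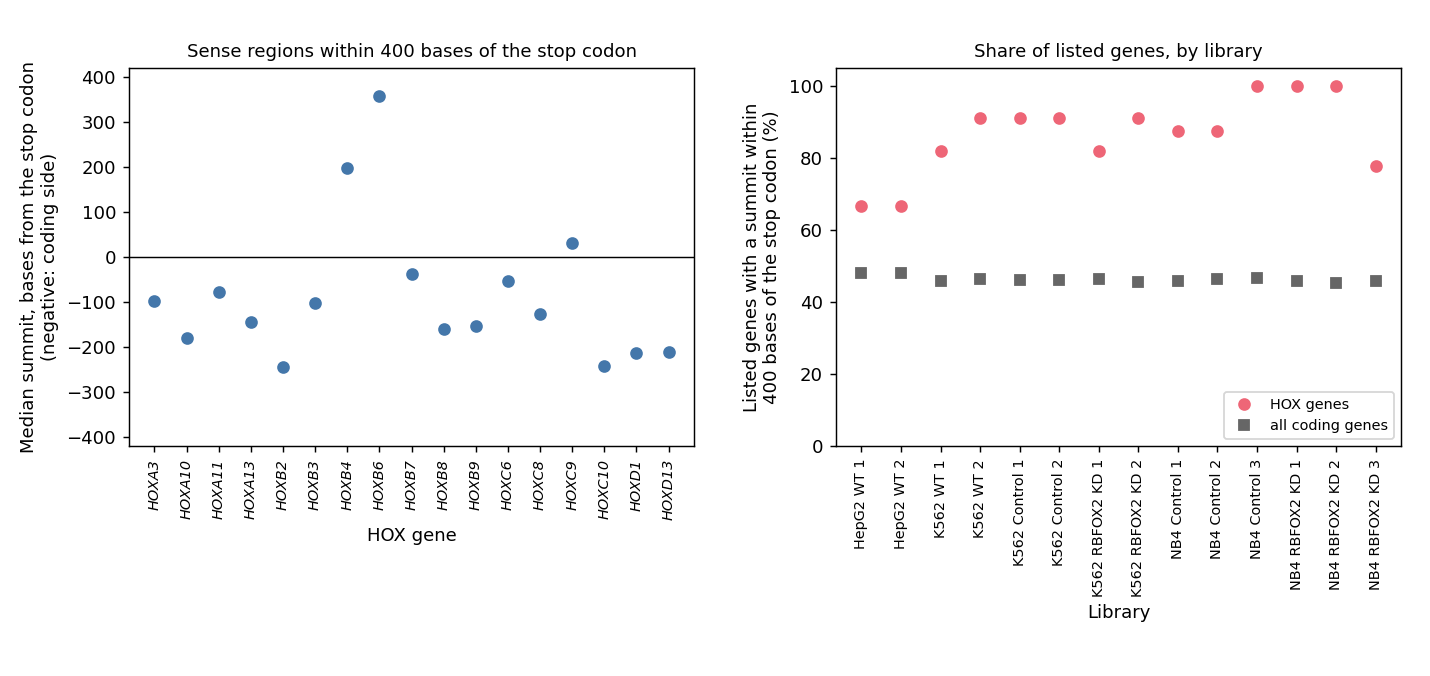
Left, distance in bases from the stop codon to the median summit of HOX sense regions within 400 bases of it, with negative values on the coding side. Right, percent of HOX genes (circles) and of all coding genes (squares) listed by canonical transcript in each library that had a summit within 400 bases of the stop codon, with circles at 66.7% to 100% and squares at 45.3% to 48.0%.

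Antisense summits were listed for 10 genes, 9 of them in at least 2 libraries. In K562 the number of genes was 4 and 4 in WT, 1 and 2 in Control, and 3 and 1 in KD. In NB4 it was 4, 3 and 4 in Control, and 3, 4 and 4 in KD, and in HepG2 it was 1 and 2. K562 had 1.17 fewer than NB4, within the spread (exact p = 0.152, adjusted p = 0.189). NB4 had 2.17 more than HepG2 (exact p = 0.0357, adjusted p = 0.0510), and K562 1 more than HepG2 (exact p = 0.571, adjusted p = 0.571). HOXC had no antisense summit in any library.

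Antisense summits lay only in clusters that the same line also listed on the sense strand, but not in all of those clusters. HOXC had none in K562 or NB4, and HOXD had none in NB4. In K562, HOXB2 had one in every library and in no NB4 library, as did 2.42% of all coding genes. It lay in exon 2 of HOXB-AS1, just upstream of the HOXB2 start at its median summit. It stood at 68.4 and 66.4 in WT, 59.5 and 58.1 in Control, and 58.0 and 55.2 in KD. HOXB3 had antisense summits in both WT libraries and Control 2, and HOXB7 and HOXB9 shared 1 in both WT libraries and KD 1.

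In NB4, HOXA9, HOXA10 and HOXA11 had an antisense summit in every library and K562 in none, as did 1.18% of all coding genes. For HOXA9 and HOXA10 it was 1 shared region (chr7:27176005-27176189, plus strand), at 14.999, 66.4 and 57.2 in Control, and 59.9, 40.8 and 62.7 in KD. HOXA13 had an antisense summit in Control 1, Control 3, KD 2 and KD 3, at 2.56 to 19.6. HOXA11-AS, which starts within HOXA11 on the other strand, was listed in all 6 NB4 libraries through its strongest peak, at 92.5, 90.8 and 86.5 in Control, and 95.7, 95.4 and 91.3 in KD. That peak, in intron 2 and upstream of the HOXA11 window at its median summit, ranked above every HOXA11 peak in each NB4 library. In HepG2, HOXD1 had an antisense summit upstream of its start, in an intron of HAGLR, in both libraries (20.8 and 41.6), and HOXA3 had one in 1.

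Of 27 noncoding and flanking genes of the clusters, 25 were found by name in the annotation and 16 were listed in no library. The share of all noncoding genes listed in no library is not given here, so this count has no background. HOTTIP, a long noncoding RNA made from the 5′ end of HOXA, was listed in all 6 NB4 libraries and in no other, at 92.7, 93.4 and 89.0 in Control, and 87.9, 86.2 and 82.3 in KD. Its KD values were all below its Control values, as at 7.07% of all regions listed in every NB4 Control and KD library. HOTTIP lies outside the HOX windows and is not among the HOX regions counted below. HOXB-AS1 was listed in all 6 K562 libraries, HOXB-AS3 in 3 through a peak it shares with HOXB-AS1, and HAGLR in both HepG2 libraries, at 37.7 and 75.9. The window of the microRNA gene MIR196A1 was listed in 5 K562 libraries and that of MIR10A in both K562 WT libraries. Between HOXB9 and HOXB13, an exon of LINC03057 was listed in all 6 K562 libraries. HOTAIR and HOTAIRM1 were listed in none.

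HOX proteins bind DNA with partners of the TALE family. Of 10 such genes, MEIS1, PBX2, TGIF1 and PKNOX1 were listed in all 14 libraries, MEIS2 in 13, PBX3 in the 6 NB4 libraries alone, PBX4 in 6 K562 libraries and NB4 Control 1, and PKNOX2 and MEIS3 were among those listed in none. Of 12 upstream regulators of HOX genes, 8 were listed in all 14 libraries, among them KMT2A, MEN1 and DOT1L. The share of all coding genes listed in all 14 libraries is not given here, so the counts of TALE genes and regulators have no background. MLLT3 was listed in every HepG2 and NB4 library and in no K562 library. CDX1 and CDX4 were listed in none, and CDX2 in NB4 Control 1. None of these 22 genes was gained or lost on KD in either line.

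The study asks whether RBFOX2 depletion changes m6A on caRNA. No HOX gene was gained or lost as a listed gene on KD. In K562, 0.329% of all coding genes were listed in every KD and no Control library and 0.454% the reverse, and 0 of 39 HOX genes met either. In NB4 the shares were 0.419% and 0.28%, with 0 of 39 HOX genes. The number of HOX genes listed was 12 ± 0 in K562 Control and K562 KD alike (SD, n = 2 per group). NB4 Control had 9.33 ± 0.577 and NB4 KD 9.67 ± 0.577 (SD, n = 3 per group). The exact permutation p was 1 in each line and for both lines together (difference 0.167, labels permuted within line). Within a line these designs cannot go below 0.33 for 2 against 2 or 0.1 for 3 against 3, and both lines together cannot go below 0.0167. Antisense counts changed by 0.5 in K562, 0 in NB4 and 0.25 over both lines (exact p = 1, 1 and 0.867). After adjustment over 8 tests within lines every p was 1. The change did not differ between the lines beyond the spread (difference of −0.33 sense genes, exact p = 1, and 0.5 antisense genes, exact p = 0.867).

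The control hairpin itself left the HOX count at 12 in both K562 WT and K562 Control. Of all coding genes 1.04% were listed in every Control and no WT library, and 3.97% the reverse, with 0 of 39 HOX genes in each. Antisense HOX counts were 4 and 4 in WT and 1 and 2 in Control, without overlap (exact p = 0.33, the smallest possible, adjusted p = 1). The WT libraries were deeper, and the part of depth in this was not tested.

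By region, 1.74% of all regions in K562 Control and KD libraries were lost (in every Control and no KD library) and 1.76% gained, against 0 of 33 HOX regions each. The NB4 shares were 0.612% lost and 3.67% gained, against 1 and 0 of 23 HOX regions. The lost one lay in coding exon 1 of HOXD13 (chr2:176092764-176092989, plus strand), at percentiles of 2.39, 55.5 and 22.02 in the 3 Control libraries. The other HOXD13 regions, in exon 1 and exon 2, were listed in all 6 libraries.

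In NB4, 12 HOX regions were listed in every Control and KD library. At 3 of them each KD library had a higher percentile than each Control library, as at 17.8% of all such regions. At 1 each was lower, as at 7.07% of all. The 3 were HOXA10 exon 2 (Control 33.5 ± 9.73, KD 65.2 ± 5.95, SD, n = 3 per group), HOXA13 exon 2 (66.4 ± 17.6 and 88.6 ± 1.73) and the HOXC9 3′ UTR (55.4 ± 10.5 and 81.2 ± 4.26). Mean fold over background went from 3.31 to 7.36 at HOXA10 and from 9.42 to 13.6 at HOXA13. At HOXC9 it was 6.02 and 7.08, with overlap between the groups. The region that was lower was exon 1 of HOXA11-AS, at 78.0 ± 9.25 in Control and 58.2 ± 2.30 in KD. Its fold was 12.3, 6.52 and 10.7 in Control and 6.70, 6.85 and 7.44 in KD, with overlap. By fold 0 of the 12 HOX regions were lower, and the share of all regions by fold is not given here. At the HOXD13 exon 1 region shown above, Control 1 (36.1) sat with the KD libraries (35.6 to 39.9), while Control 2 and Control 3 stood at 87.2 and 83.6. The median difference over the 12 HOX regions was 6.21 percentile points, with 9 of 12 higher in KD, beside 2.78 points over 18180 regions, of which 62.8% were higher. Without Control 3 the count of regions higher in KD rose from 3 to 5, and without Control 1 the count of lower regions rose from 1 to 2. Leaving out a library makes the criterion easier to meet, so these rises do not measure stability. NB4 KD lists were called at higher depth than Control lists, as given above, and the part of depth in these counts was not tested.

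In K562, 21 HOX regions were listed in every Control and KD library. The HOXC8 peak was higher in both KD libraries, as were 13.4% of all regions. HOXC6 exon 2 (Control 22.5 ± 2.95, KD 12.5 ± 2.74, SD, n = 2 per group) and HOXB-AS1 exon 2 (58.8 ± 0.946 and 56.6 ± 2.00) were lower, as were 16.6% of all regions. The difference at HOXB-AS1 was −2.24 points. Its mean fold was 9.13 in Control and 9.45 in KD, so the direction turned on that scale. By fold 4 of the 21 regions were higher in both KD libraries and 0 were lower in both. The share of all regions by fold is not given here, so these 2 counts have no background. The median difference over the 21 regions fell by 1.27 points, with 7 of 21 higher, beside −0.490 over 25297 regions, of which 45.8% were higher. With 2 libraries a group, leaving out 1 makes the criterion easier to meet, so the counts tend to rise by construction. The share of all regions under such an omission is not given here, so these rises do not measure stability. Leaving out 1 library at a time gave 2 to 5 higher regions, with 3 without KD 1, 5 without KD 2 or Control 1, and 2 without Control 2. It gave 5 to 12 lower regions, with 12 without KD 1, 11 without Control 1, and 5 without KD 2 or Control 2.

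**Figure D4:**
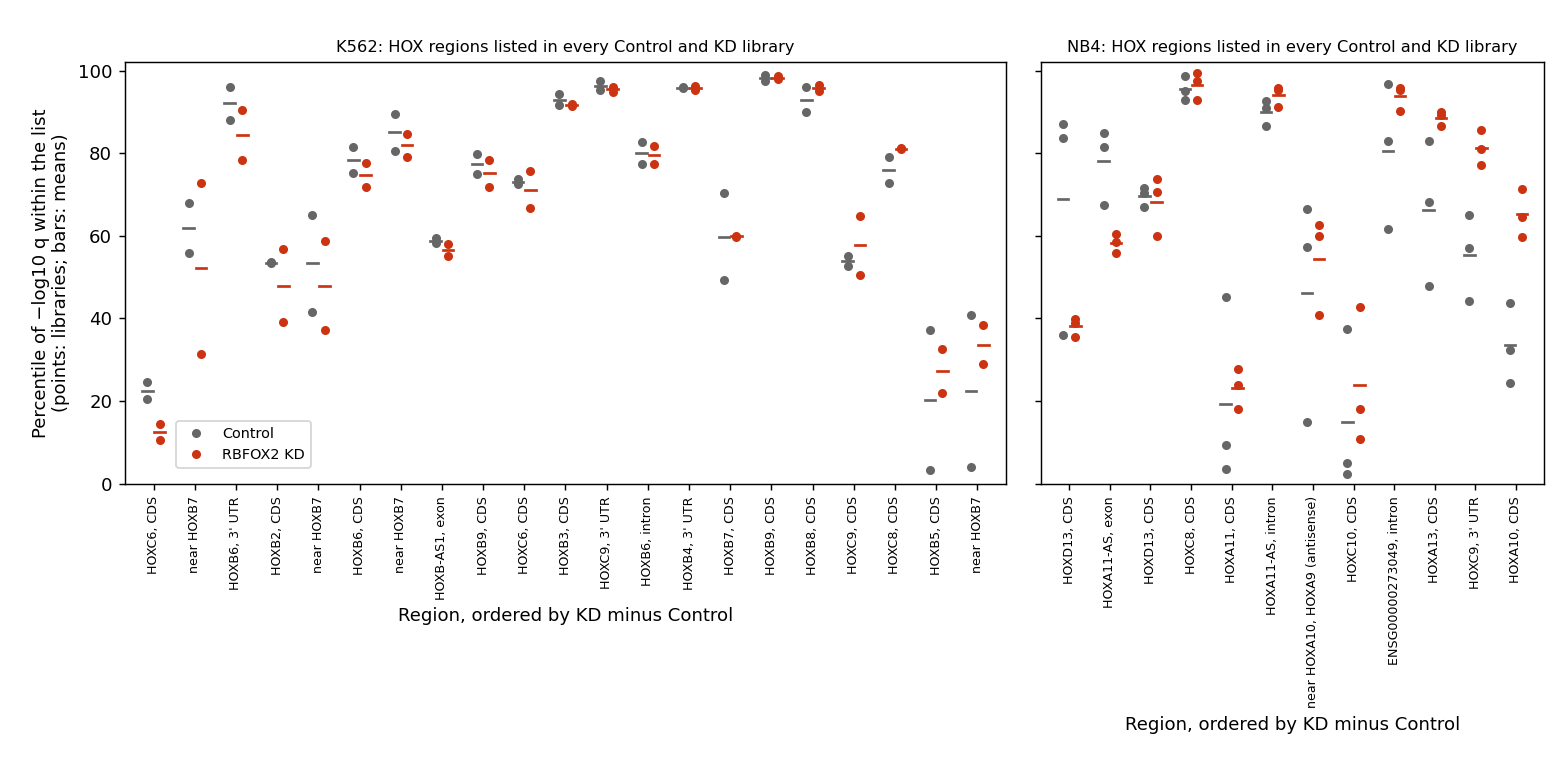
Percentile of −log10 q of HOX regions listed in every Control and RBFOX2 KD library of K562 (left) and NB4 (right), with points for libraries, bars for group means, and regions ordered by KD minus Control. In NB4 the 3 KD points lie above all Control points at HOXA10, HOXA13 and the HOXC9 3′ UTR and below them at the HOXA11-AS exon, while most K562 regions overlap.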

How the data were processed

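Chromatin-associated RNA of HepG2, K562 and NB4 was immunoprecipitated with an m6A antibody, and 14 IP libraries came with a peak list each. Per the methods and the submitters' processing notes, the authors trimmed reads with Trimmomatic 0.39, aligned them to hg38 with HISAT2 2.1.0, split strands with SAMtools 1.9 and called peaks by strand and library with MACS2. The deposited lists hold, for each peak, a score, the fold (a ratio of summit pileup to local background), the −log10 p-value and the −log10 q-value. They hold no read counts, and use of the input as background is not given in the sources used here. No count model was fitted.

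Pileup and local mean were recovered from fold and p-value. Pileups were whole, within the larger of 0.02 reads and 0.05% of the pileup, in 11 lists, and at 10.1%, 13.2% and 10.5% of summits in both HepG2 lists and in NB4 Control 3, where depth is approximate. Genes were those of GENCODE release 44. Computation used Python 3.11.15, numpy 2.4.6, pandas 2.3.3 and scipy 1.17.1, with plots from matplotlib 3.10.9.

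Differences of counts were tested by exact permutation over libraries, two-sided on the absolute difference, with Benjamini-Hochberg adjustment. In simulated lists over 20033 genes, 3 against 3, 200 of 200 changed genes were recovered. That count checks the calling rule on planted changes and does not measure power in these libraries. Recovery is not given apart for genes whose windows share peaks, as those of HOX neighbours do. The count therefore does not show how HOX genes would fare. All HOX genes are accounted for, and those listed in at least 2 libraries are named with values. Strength was meant to be compared by gene, and was compared by region because gene windows share peaks. That choice was made after seeing the data. The members and lists were chosen with earlier results of these data known. Alternatives were a stricter −log10 q of 5, equal list size, depth matching, gene body only, canonical transcript, peak overlap, omission of each replicate or of KD libraries, and a replicate block. Some items are not reported here.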

Additional observations from a re-analysis of the deposited data

Results flagged for a closer look

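Over the K562 libraries, 1 value stood far from the rest at 2 HOX regions. At the HOXB2 exon 2 region the percentile of RBFOX2 KD 2 was 39.1, while the other 5 libraries stood at 50.6 to 56.8. At HOXC6 coding exon 1 the same library stood at 66.7, while the others stood at 72.6 to 75.7. The criterion was Dixon's ratio of gap to range over the 6 libraries of a line, applied to 35 sets of values. Chance marks about 1 set in 20. K562 RBFOX2 KD 2 had the lowest recovered depth of the K562 libraries (12.6 M reads), and the part of depth in both values was not tested.

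At the HOXC9 3′ UTR region every KD library lay below its Control mean in K562 and above it in NB4. The percentile changed by −0.866 points in K562, where Control (95.3 and 97.5) and KD (94.9 and 96.1) overlapped, and by 25.8 points in NB4, where they did not. The K562 change was smaller than the spread between Control libraries (SD 1.54, n = 2), and mean fold was higher in KD in both lines (28.4 and 30.6 in K562, 6.02 and 7.08 in NB4). No opposite move is shown on that scale, and the difference between the lines was not tested.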

How the results depend on the processing

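The differences of HOX sense counts and of the HOXA, HOXB and HOXD counts between K562 and NB4 kept their direction and their side of 0.05 under every alternative run. With equal list sizes the NB4 KD difference in sense genes became −1.33, that over both lines −0.667, the antisense difference over both lines −0.167 and the HOXC difference between K562 and NB4 0.33, each reversed but within the spread. Under the same setting the antisense difference between K562 and NB4 passed the threshold at −1.5 (exact p = 0.0455, not adjusted), and that between NB4 and HepG2 no longer did, at 1.17. With canonical transcripts these became 0.33 (reversed) and 0.167 (not past the threshold), because the antisense region at HOXA9 and HOXA10 falls outside those windows. With the gene body only, without upstream bases, the antisense difference between K562 and NB4 was 0 (exact p = 1). Without KD libraries the differences from HepG2 lost the threshold before adjustment at 9 for K562, 6.33 for NB4 and 2.17 for NB4 antisense, where the smaller groups allow no p below 0.0667 or 0.1. With 1 HepG2 library left out they were 9, 6.50 and 1.67 to 2.67, and p cannot go below 0.143. Omitting any 1 library, NB4 minus HepG2 ranged from 6.4 to 6.6, and the antisense KD difference from −0.5 to 1.5 in K562 and from −0.25 to 0.75 over both lines, negative without K562 RBFOX2 KD 1. Over all omissions of 1 library 182 values kept direction and side, 6 lost the threshold, 2 reversed and 10 region counts moved, from 2 to 5 (K562, higher), 5 to 12 (K562, lower), 3 to 5 (NB4, higher) and 1 to 2 (NB4, lower). Leaving out a library makes the region criterion easier to meet, so those region counts tend to rise by construction. With fold in place of the percentile, an alternative chosen after seeing the data, 4 K562 regions were higher and 0 lower, and 0 NB4 regions were lower. No share of all regions by fold, or with a library left out, is given beside these counts. Other causes were not tested.

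Same-numbered Control and KD libraries did not deviate together (correlation over genes −0.0742 in K562, and −0.0547, −0.0624 and −0.160 in NB4). That shows no pairing by number and cannot exclude one. With 2 libraries a group, same-numbered and crossed K562 values mirror each other by construction. With the replicate block the KD differences stayed at 0 (K562), 0.33 (NB4) and 0.167 (both) for sense genes and 0.5, 0 and 0.25 for antisense genes, with exact sign-flip p of 1, 1, 1, 1, 1 and 0.875.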
